A study of Mus musculus with 12 samples.

Results

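The miR-17-92 cluster is a group of miRNAs cut from 1 primary transcript, and its mature members miR-17, miR-18a, miR-19a, miR-20a, miR-19b and miR-92a were followed through mouse granulopoiesis. The members were taken by name as the miRNAs of 1 transcript, and no value of theirs enters the rule, although earlier results of these data were known when the cluster was chosen. They are 6 of the 593 assays of TaqMan rodent miRNA cards, of which 269 could be given a miRNA's name, and all 6 are on card A. The samples were RNA from bone marrow of C57BL/6 mice, sorted by flow cytometry into LSK cells, promyelocytes, myelocytes and granulocytes. LSK cells are lineage negative, Sca1 and cKit positive stem and progenitor cells, and the other populations follow in order of maturation. Whole cell, cytoplasmic and nuclear RNA was measured for each of the 4 stages, with 1 sample per stage and fraction and 100 ng of RNA per sample, which makes 12 samples in all. There was therefore no replicate error and no test between stages, and every value below describes these samples. The labels do not say how many mice a sample held or whether the 3 fractions of a stage came from the same sorted cells, so the fractions are not counted as replicates.

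The CT (cycle threshold) is the PCR cycle at which an assay's signal is first detected, so that it is lower where the miRNA is more abundant, by 1 cycle per 2-fold if every cycle doubles the product. Sets of 4 values are given in the order of maturation, LSK first and granulocytes last. Undetermined wells are listed at 40, and the study treated a CT under 30 as reliable. Between 199 and 294 assays per sample had a CT under 40. The stage labels were compared with miRNAs known for their stage. The whole cell CT of miR-223, a miRNA of mature myeloid cells, was 24.0 in LSK and 19.5, 17.3 and 16.4 in the later stages. The CT of miR-126-3p, known from stem and progenitor cells, was 24.3 in LSK and from 27.0 to 27.6 in the later stages. The lymphocyte miRNA miR-150 had a whole cell CT of 25.1 in LSK and 28.8, 25.6 and 25.8 in the later stages. Its CT was thus highest in promyelocytes, the stage where the CT of the cluster members was lowest, and a part of lymphocyte RNA in the results was not tested. In bulk RNA, fewer cells with a miRNA and less of it per cell cannot be told apart.

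The primary transcript of the cluster folds into hairpins, which Drosha and Dicer cut to short mature strands. Each strand guides silencing of messages that pair with its seed, the bases 2 to 8 from its 5′ end. The cluster is known as an oncogene in lymphoma and as a factor in B cell development and in the proliferation of myeloid progenitors. Targets known for its members include the cell death gene Bim. In the RefSeq mouse annotation (GRCm38.p6) the 6 hairpins lie on the plus strand at chr14:115043671-115044506. They span 836 bases with gaps of 35 to 96 bases between neighbours, and the host gene is the long non-coding RNA gene Mir17hg. All 6 members matched a RefSeq mature sequence through its current name, and the strands are shown because seed families and near-identical copies decide which assays can be compared. They are written 5′ to 3′ with the seed in capitals and in the order of the hairpins.
miR-17: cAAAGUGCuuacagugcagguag
miR-18a: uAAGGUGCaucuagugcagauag
miR-19a: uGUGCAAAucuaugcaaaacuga
miR-20a: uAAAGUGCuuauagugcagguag
miR-19b: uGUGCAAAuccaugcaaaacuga
miR-92a: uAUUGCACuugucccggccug
The 6 strands carry 4 seeds. The seed AAAGUGC is common to miR-17 and miR-20a, which differ at 2 of 23 bases (C1U and C12U, counted from the 5′ end with the base of miR-17 first). The seed of miR-18a, AAGGUGC, differs from it at 1 base. miR-19a and miR-19b have the seed GUGCAAA and differ at 1 of 23 bases (U11C, with the base of miR-19a first). miR-92a alone has the seed AUUGCAC.

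The mature strands lie at chr14:115043684-115043706 (miR-17), chr14:115043867-115043889 (miR-18a), chr14:115044048-115044070 (miR-19a), chr14:115044183-115044205 (miR-20a), chr14:115044358-115044380 (miR-19b) and chr14:115044476-115044496 (miR-92a), all on the plus strand. The strands of miR-19b and miR-92a are encoded at 2 loci each. The second loci are chrX:52741991-52742013 and chrX:52741854-52741874, on the minus strand in the paralogous miR-106a-363 cluster, and an assay of the mature strand reads both loci together. Paralogs with the seed of miR-17 and the same length of 23 bases are shown beside them, since an assay could read across so small a difference. miR-106b has this seed too, but its strand of 21 bases was not compared base by base.
miR-106a: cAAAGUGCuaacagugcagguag
miR-20b: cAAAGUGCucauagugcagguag
miR-93: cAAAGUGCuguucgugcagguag
miR-106a (chrX:52742541-52742563, minus strand) differs from miR-17 at 1 of 23 bases (U10A), and miR-20b (chrX:52742159-52742181, minus strand) differs from miR-20a at 2 (U1C and U10C). miR-93 (chr5:138165574-138165596, minus strand), from the miR-106b-25 cluster, differs from miR-17 at 4. How far the assays read across these paralogs was not tested.

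The levels are considered first as raw CT. miR-19b had the lowest CT of the cluster in 11 of the 12 samples and ranked from 1 to 7 among all named assays in its sample. In whole cell RNA its CT was 21.8 in LSK and 20.4, 20.9 and 20.7 in promyelocytes, myelocytes and granulocytes. miR-17, whose seed family is known to act on cell cycle inhibitors, had a whole cell CT of 22.2, 20.9, 21.9 and 21.6 in the same order. In both, the CT was highest in LSK and lowest in promyelocytes. For miR-20a, the second miRNA with the seed of miR-17, the CT was 24.2 in LSK and then 22.0, 22.7 and 23.2. For miR-19a, which shares its seed with miR-19b, it was 24.5, 22.5, 23.4 and 23.2. These too had their highest CT in LSK and their lowest in promyelocytes. The CT of miR-92a, known as a regulator of blood vessel growth, was 23.5 in LSK and then 23.2, 24.1 and 24.0, a span of only 0.90 cycles. miR-18a, known to silence the matrix gene Ctgf, had the highest CT of the cluster in each sample, with 30.4 in LSK and then 27.2, 27.99 and 28.2, a span of 3.18 cycles. The LSK value of miR-18a is thus above the limit of 30. Since assays can differ in efficiency, the order of CT between members is an order of assays and not of miRNA copies.

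**Figure D1:**
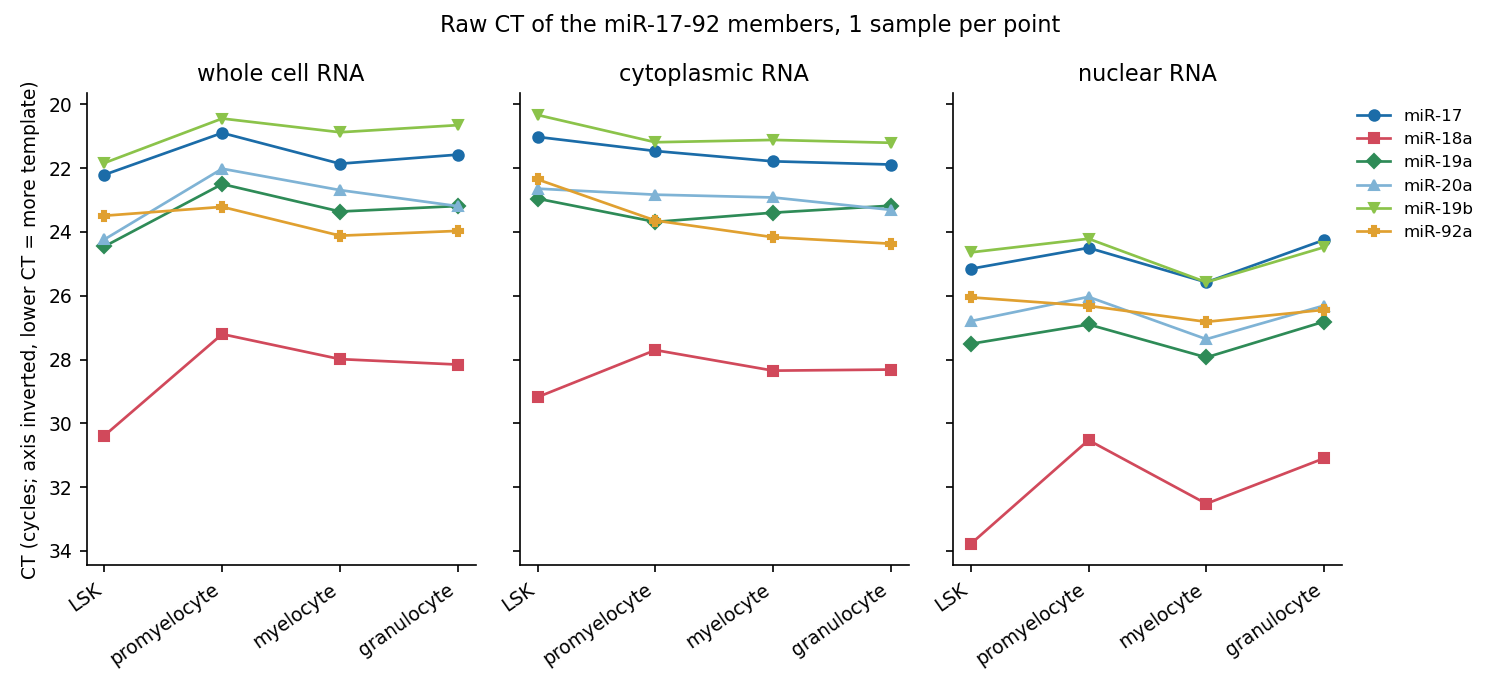
Raw CT in cycles (vertical axis, inverted) of the 6 members at the 4 stages (horizontal axis) in whole cell, cytoplasmic and nuclear RNA, with 1 sample per point. In whole cell RNA each member has its lowest CT in promyelocytes, and miR-18a lies below the other members in each sample, from 27.2 to 33.8.

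In cytoplasmic RNA the order of stages by unscaled CT was a different one. The CT of miR-17 was 21.0, 21.5, 21.8 and 21.9 from LSK to granulocytes. That of miR-19b was 20.3, 21.2, 21.1 and 21.2, and that of miR-92a was 22.4, 23.6, 24.2 and 24.4. These 3 members had their lowest cytoplasmic CT in LSK, as did miR-20a (22.6, 22.8, 22.9 and 23.3) and miR-19a (23.0, 23.7, 23.4 and 23.2). Of 128 named assays, 46.9% had their lowest cytoplasmic CT in LSK. Under each of the 4 scalings tried 5 or 6 members had it in promyelocytes instead, with 21.9% to 54.7% of the named assays. miR-18a had its lowest cytoplasmic CT in promyelocytes as in whole cell RNA, with 29.2 in LSK, 27.7 in promyelocytes and 28.3 in both later stages. In nuclear RNA the CT was 25.2, 24.5, 25.6 and 24.2 for miR-17, and 24.6, 24.2, 25.6 and 24.5 for miR-19b. It was 26.8, 26.0, 27.4 and 26.3 for miR-20a, and 27.5, 26.9, 27.9 and 26.8 for miR-19a. In these 4 members the nuclear CT was highest in myelocytes. For miR-92a the nuclear CT was 26.1, 26.3, 26.8 and 26.4, lowest in LSK. For miR-18a it was 33.8 in LSK and then 30.5, 32.5 and 31.1, and all of these are above 30.

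The first step of granulopoiesis measured here, from LSK to promyelocyte, was accompanied by higher whole cell levels of most members. Whole cell changes are the fall in CT between stages minus the fall of 3 unnamed assays that close card B, taken as their mean CT. This scaling moved all whole cell changes of the step by 0.25 cycles. On this log2 scale miR-18a was higher in promyelocytes by 2.93, miR-20a by 1.97, miR-19a by 1.71, miR-19b by 1.15 and miR-17 by 1.06. miR-92a, at the 3′ end of the transcript, differed by 0.03. Thus 5 of the 6 members were 2-fold or more higher, with a median of 1.43. Of 104 named assays under a CT of 30 in either stage, 35 (33.7%) were 2-fold or more higher, with a median of 0.43. Scaled by the mean of the named assays, 3 members were 2-fold or more higher, where 25% of the named assays were.

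The members with one seed did not have one value. In this step miR-20a was higher by 1.97 and miR-17 by 1.06, and in the other family miR-19a was higher by 1.71 and miR-19b by 1.15. With 1 well per assay, the error of these differences is not known.

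**Figure D2:**
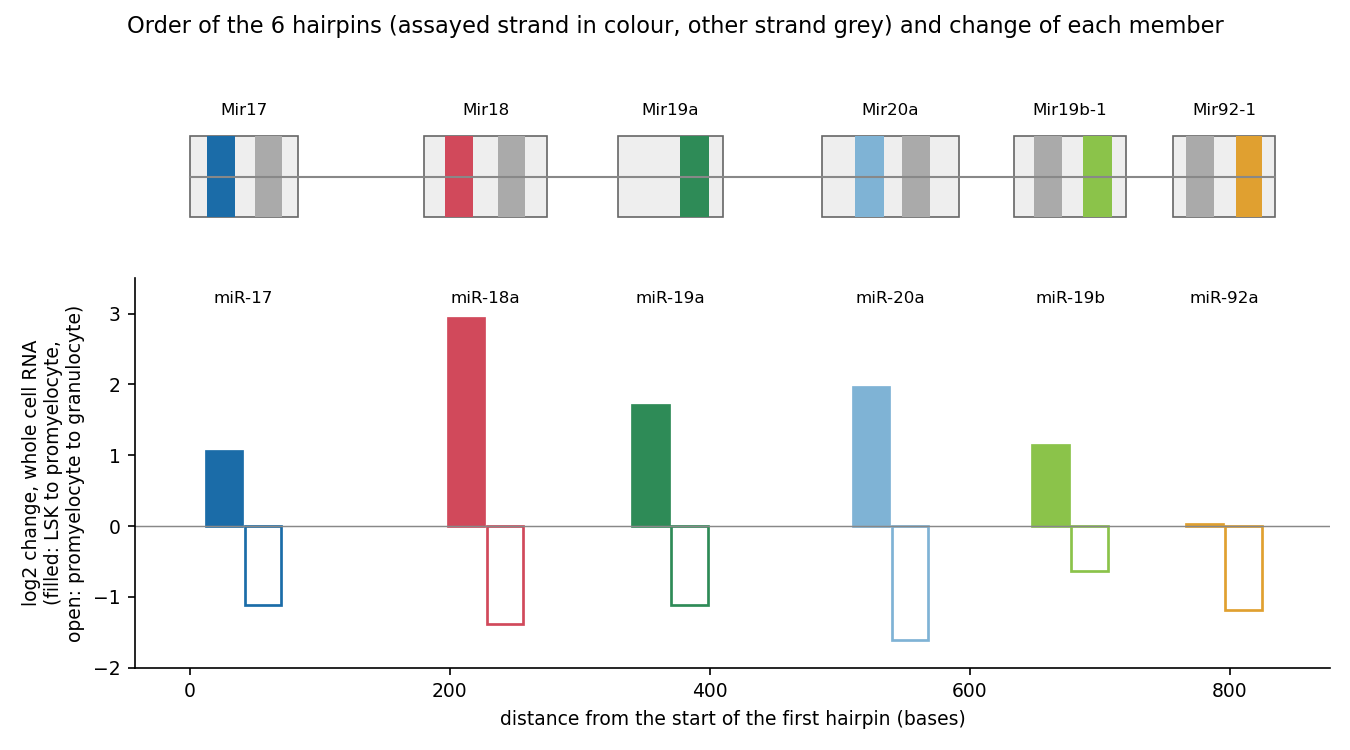
Upper part, the 6 hairpins on a scale of bases from the start of the first, with the assayed mature strand in colour and the other strand, where RefSeq lists one, in grey. Lower part, the scaled whole cell log2 change of each member (vertical axis), filled bars for LSK to promyelocyte and open bars for promyelocyte to granulocyte, 1 sample per stage. The filled bar of miR-18a reaches 2.93 and that of miR-92a 0.03, and all open bars are below 0.

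In both later stages the whole cell levels of all 6 members were lower than in promyelocytes. From promyelocytes to myelocytes the log2 changes ran from -0.95 (miR-17) to -0.42 (miR-19b). None of the 6 was 2-fold lower, where 12.5% of 112 named assays were, although 5 were when scaled by the named assays, with 25.9% of them. From myelocytes to granulocytes they ran from -0.94 (miR-20a) to -0.16 (miR-17), again with none 2-fold lower and 6.67% of 120 named assays lower by that much. The direction of this last step rests on the scaling, since without it 4 of the 6 members were above 0, with a median of 0.16. So were 76.7% of the 120 named assays, with a median of 0.51. Over both steps together, from promyelocytes to granulocytes, miR-20a changed by -1.60, miR-18a by -1.38, miR-92a by -1.18, miR-19a by -1.12, miR-17 by -1.11 and miR-19b by -0.64. So 5 of the 6 were 2-fold or more lower in granulocytes, against 26 of 123 named assays (21.1%). The median was -1.15 for the members and 1.06 for the named assays, and each member was below the latter. The 5 are close to the limit, since without scaling miR-20a alone passed it, with 10.6% of the named assays.

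Every member had its lowest scaled whole cell CT in promyelocytes, as did 29 of 129 named assays (22.5%). The same was true of the raw CT. The lead over the next stage was 0.95 cycles for miR-17, 0.85 for miR-19a, 0.77 for miR-18a, 0.66 for miR-20a, 0.42 for miR-19b and 0.03 for miR-92a, under 2-fold in each. With the mean of the named assays as the scale, miR-92a was instead highest in LSK and the other 5 remained highest in promyelocytes, as were 21.7% of the named assays. The lead was then 2-fold or more in 3 of these 5. Below the promyelocyte the order was myelocyte, granulocyte and LSK for miR-18a, miR-19a, miR-20a and miR-19b. It was myelocyte, LSK and granulocyte for miR-17, where the later neighbours were 0.11 and 0.05 cycles apart. It was LSK, myelocyte and granulocyte for miR-92a. From LSK to granulocytes miR-18a was higher by 1.55 and miR-92a changed by -1.15, while the other 4 lay from -0.05 to 0.59. Of 124 named assays 55.6% were 2-fold or more higher over this span, with a median of 1.31, and miR-18a was the 1 member above it. Only miR-92a was 2-fold lower, as were 16.1% of the named assays. Without scaling its change was -0.48, which is under 2-fold, and scaled by the named card A assays 2 members were 2-fold lower, with 28.2% of the named assays. The change of miR-18a was under 2-fold, at 0.72 and 0.51, when scaled by the named and by the named card A assays. The median of the members over this span was 0.44, and -0.40 when scaled by the named assays.

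Without scaling of the fractions, whole cell and cytoplasmic RNA gave different signs for the step from LSK to promyelocytes. With the card B scaling used for whole cell RNA, all 6 cytoplasmic changes were above 0, with a median of 1.27. So were those of 65.8% of 111 named assays, with a median of 0.59. The sign of the cytoplasmic values below thus depends on the scale. In cytoplasmic RNA, where CT differences are given without scaling, miR-18a was higher by 1.48, and the others changed by -0.19 (miR-20a), -0.44 (miR-17), -0.73 (miR-19a), -0.86 (miR-19b) and -1.29 (miR-92a). Thus 1 member was 2-fold higher, where 8.11% of 111 named assays were, and 1 was 2-fold lower, where 64% were. These counts turn with the scale. Scaled by the 3 card B assays 4 members were 2-fold higher, with 35 of the 111, and none was 2-fold lower, with 18. With the last 2 assays of card A all 6 were 2-fold higher, with 61. The median of the members was -0.59 and that of the named assays -1.26. The shift between fractions was common to nearly all assays. Among 66 named assays under the limits in both fractions, the unscaled whole cell change exceeded the cytoplasmic one in 65 (98.5%), by 2.03 cycles on average (SD 0.65 across assays). For the members the excess was between 1.57 and 2.69 cycles. The mean of the 3 card B assays changed by -1.85 in cytoplasmic RNA over this step. In nuclear RNA the members' median was 0.63 and that of 85 named assays 0.23. Scaled by the last 2 assays of card A the members' median turned to -0.50, with miR-18a as the 1 member above 0. Of the named assays 22.4% were then above 0. Unscaled, miR-18a was higher by 3.26 and was the 1 member of 6 past 2-fold, where 24.7% of the named assays were. miR-20a was higher by 0.76, miR-17 by 0.66, miR-19a by 0.61 and miR-19b by 0.43, and miR-92a changed by -0.27. Set against the median of the named assays of the same fraction, a difference that scaling does not change, 5 of 6 members were above it in each fraction. miR-92a was the one below it each time, although barely so in cytoplasmic RNA, at -1.29 beside -1.26.

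The step from promyelocytes to granulocytes was also read in the other fractions. The cytoplasmic changes were 0.51 for miR-19a, -0.02 for miR-19b, -0.42 for miR-17, -0.48 for miR-20a, -0.61 for miR-18a and -0.73 for miR-92a. The sign of miR-19a turned under each of the 4 scalings, to between -3.01 and -0.60. None was 2-fold lower, where 10.9% of 110 named assays were. This count rests on leaving the fraction unscaled, since 5 were 2-fold lower when scaled by the named assays, with 27.3% of them. The nuclear changes ran from -0.57 (miR-18a) to 0.25 (miR-17), with none 2-fold higher, where 56.2% of 105 named assays were. Both count and direction turn with the scale. Scaled by the 3 card B assays 5 members were 2-fold higher, with 82.9% of the named assays, and scaled by the named assays 5 were 2-fold lower, with 32.4%. The medians of the named assays were 1.31 in cytoplasmic and 1.46 in nuclear RNA, and all 6 members were below them in both. The members' median was below that of the named assays by 2.20 in whole cell, 1.76 in cytoplasmic and 1.66 in nuclear RNA. Within nuclear RNA, 5 of 6 members were 2-fold or more lower in myelocytes than in promyelocytes, with 32.6% of 86 named assays, and the sixth, miR-92a, changed by -0.50. Scaled by the 3 card B assays the median of this step turned from -1.20 to 0.21, with no member 2-fold lower, where 15.1% of the named assays were. From myelocytes to granulocytes the same 5 were higher by 1.05 to 1.43, where 77.2% of 101 named assays were 2-fold or more higher with a median of 1.48, above each of the members. Scaled by the named assays the members' median of this step was -0.17, and none was 2-fold higher, where 23.8% of the named assays were.

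**Figure D3:**
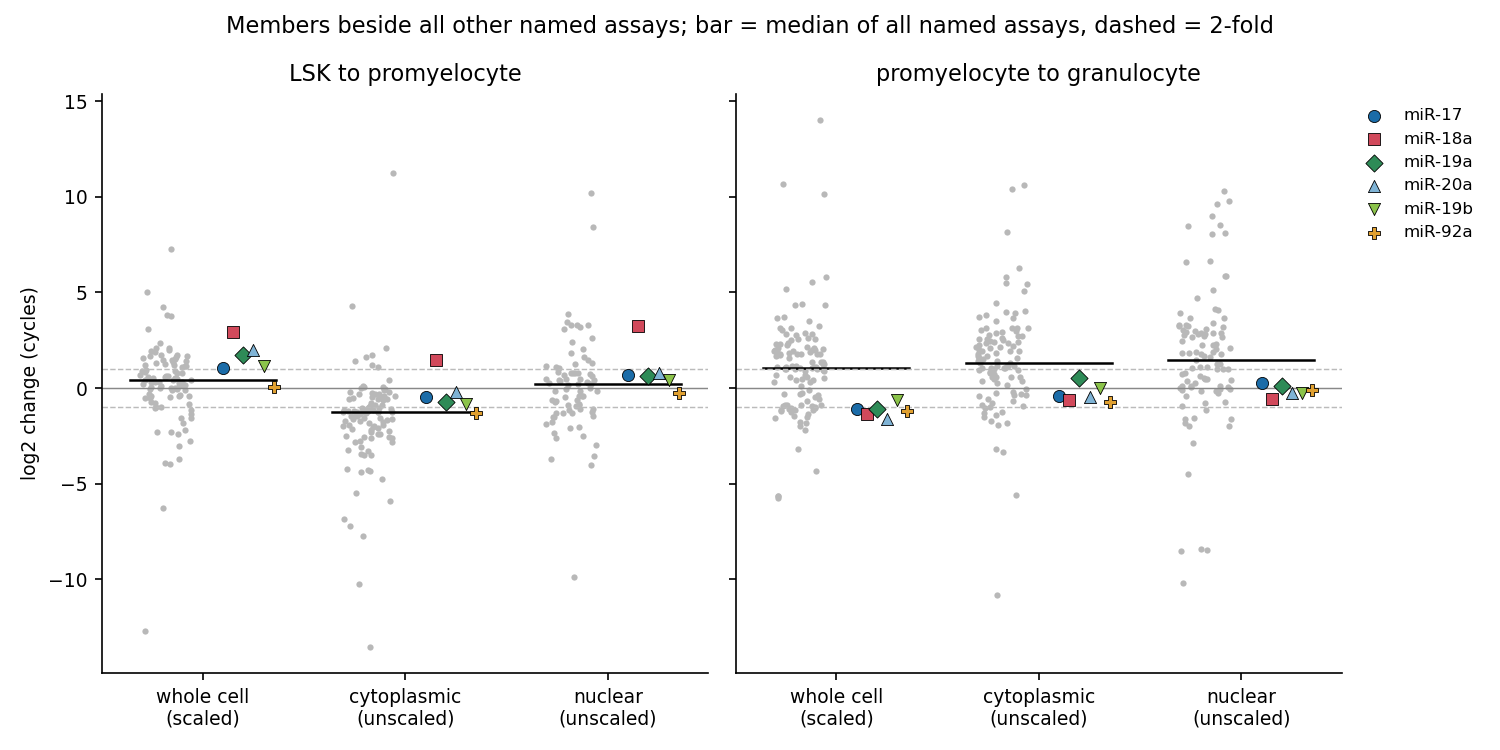
Log2 change in cycles (vertical axis) of the members, as coloured symbols, and of the other named assays under the CT limit, as grey points, in the 3 fractions for LSK to promyelocyte (left) and promyelocyte to granulocyte (right), 1 sample per stage. The black bars are the medians of all named assays, 0.43, -1.26 and 0.23 on the left and 1.06, 1.31 and 1.46 on the right, where each member lies below the bar.

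To compare the members with each other without any scaling, the CT of each was set against the mean CT of the 6 in the same sample. On this measure, chosen after the values were seen, miR-18a differed most between LSK and the later stages. Its CT was above the mean of the cluster by 5.95 cycles in whole cell, 6.10 in cytoplasmic and 6.46 in nuclear RNA of LSK. In the other 9 samples it was above it by 4.11 to 4.89 cycles. The ranges did not overlap, and miR-18a was therefore lower in LSK relative to the mean of its cluster by 1.63 cycles on average. It was the only 1 of the 6 whose LSK values lay outside the range of the other samples, where 14 of 83 named assays (16.9%) did, so that the count itself is near the background. The ranges also stayed apart against the median of the other 5 members. By size, the difference of miR-18a ranked 20 among these 83. Set directly against miR-17, its neighbour in the transcript, the CT of miR-18a was higher by 8.16 to 8.63 cycles in LSK and by 6.03 to 6.94 in the other samples. Its LSK values in whole cell and nuclear RNA are above a CT of 30.

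miR-92a went the other way. Its CT relative to the mean of the cluster was -0.94 in whole cell, -0.73 in cytoplasmic and -1.27 in nuclear RNA of LSK, and from -0.81 to 0.66 in the other 9 samples. The ranges overlapped through nuclear RNA of myelocytes, at -0.81. In LSK the CT of miR-92a was thus lower than the mean of the cluster in all 3 fractions, and in whole cell and cytoplasmic RNA of the later stages it was higher, by 0.22 to 0.66. This sign depends on the reference, since the mean includes the high CT of miR-18a. Against the mean of miR-17, miR-19a, miR-20a and miR-19b, the CT of miR-92a was higher in LSK too, by 0.02 to 0.61 cycles. In the later stages it was higher than that mean by 0.21 to 1.97. Relative to the cluster, the other 4 members differed between LSK and the later stages by -0.31 (miR-19b), -0.24 (miR-17), 0.03 (miR-19a) and 0.10 (miR-20a) on average, and their ranges overlapped. The difference between miR-19a and miR-19b stayed between 1.97 and 2.87 cycles over the 12 samples, and that between miR-20a and miR-17 between 0.83 and 2.06.

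**Figure D4:**
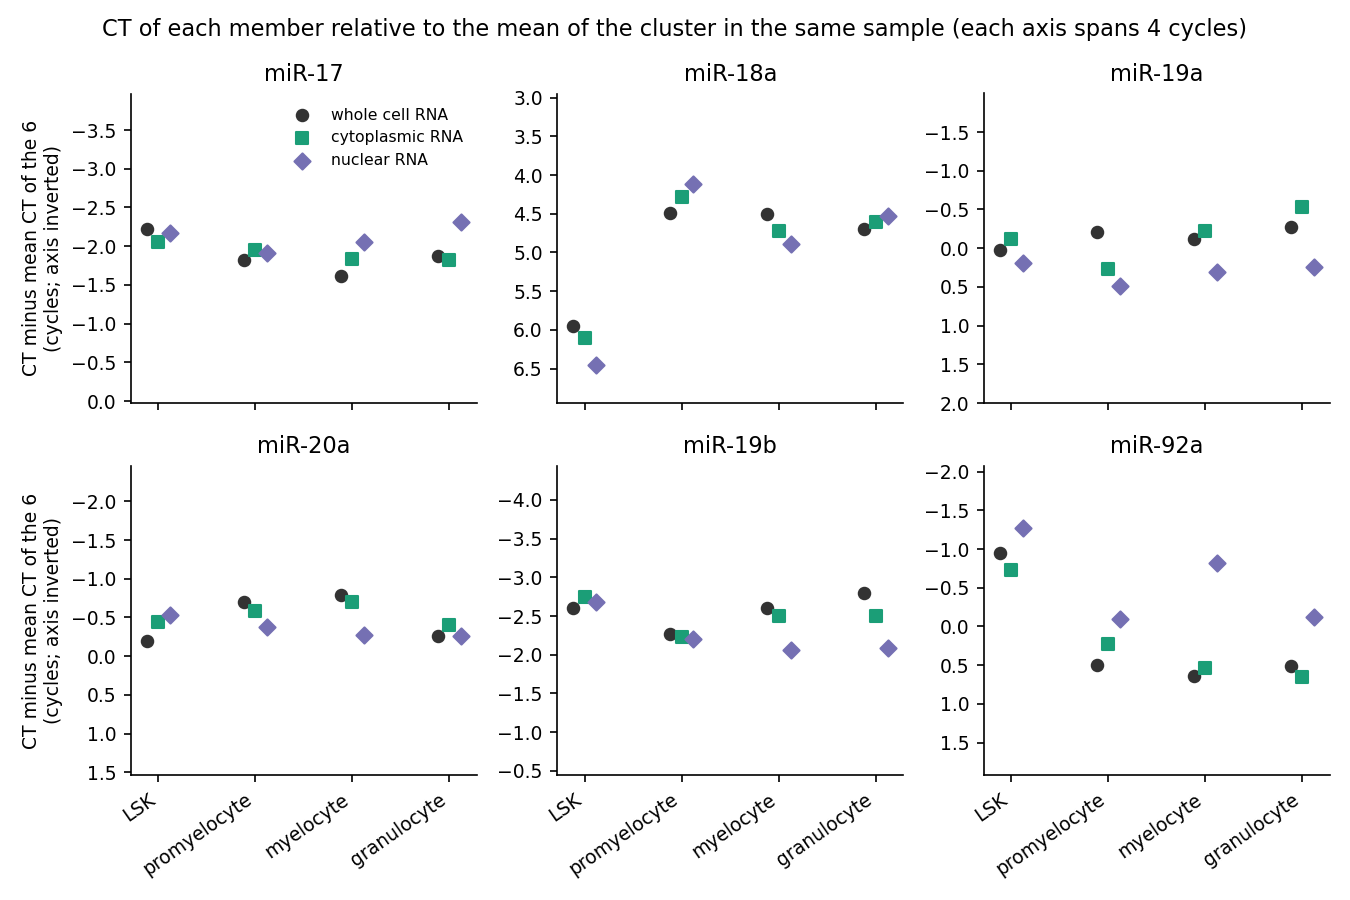
CT of each member minus the mean CT of the 6 members in the same sample, in cycles (vertical axis, inverted, 4 cycles in each panel), by stage (horizontal axis) and fraction (symbols), 1 sample per point. The LSK points of miR-18a, from 5.95 to 6.46, lie apart from its other points, from 4.11 to 4.89, and those of miR-92a, from -1.27 to -0.73, overlap with 1 other point, nuclear RNA of myelocytes at -0.81.

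The members all had a higher CT in nuclear than in cytoplasmic RNA. The labels and the methods differ on whether equal RNA amounts or cell equivalents of the fractions were loaded, so these differences and ratios cannot be read as per cell or per amount of RNA. The nuclear minus cytoplasmic CT had a median over the members of 4.23 cycles in LSK and of 3.03, 4.31 and 2.89 in the later stages. The medians of the named assays with a nuclear CT under 32 were 4.05, 2.74, 3.73 and 2.45 over 67, 73, 64 and 99 assays. The members' medians stood from 0.18 to 0.57 cycles above them and were highest in myelocytes, where those of the named assays were highest in LSK. As a ratio of nuclear to cytoplasmic level, the lowest value of a member was 0.041 (miR-18a in LSK) and the highest 0.238 (miR-92a in granulocytes). The study's published ratios carry a further divisor of 3, with which these are 0.014 and 0.079. miR-92a had the smallest difference of the 6 in each stage, with 3.70, 2.67, 2.65 and 2.07 cycles in the order of maturation. It was also the only member below the median of the named assays in LSK, promyelocytes and myelocytes, while in granulocytes miR-17, at 2.36, was below it as well. The distance of miR-92a to that median was largest in myelocytes, at -1.08 cycles, and smallest in promyelocytes, at -0.06. miR-19a had the largest difference in 3 of the 4 stages, at 3.22 cycles in promyelocytes, 4.54 in myelocytes and, later, 3.63 in granulocytes. The same difference of the 3 card B assays was below 0 in all stages, at -3.59, -5.68, -2.60 and -1.03 cycles.

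**Figure D5:**
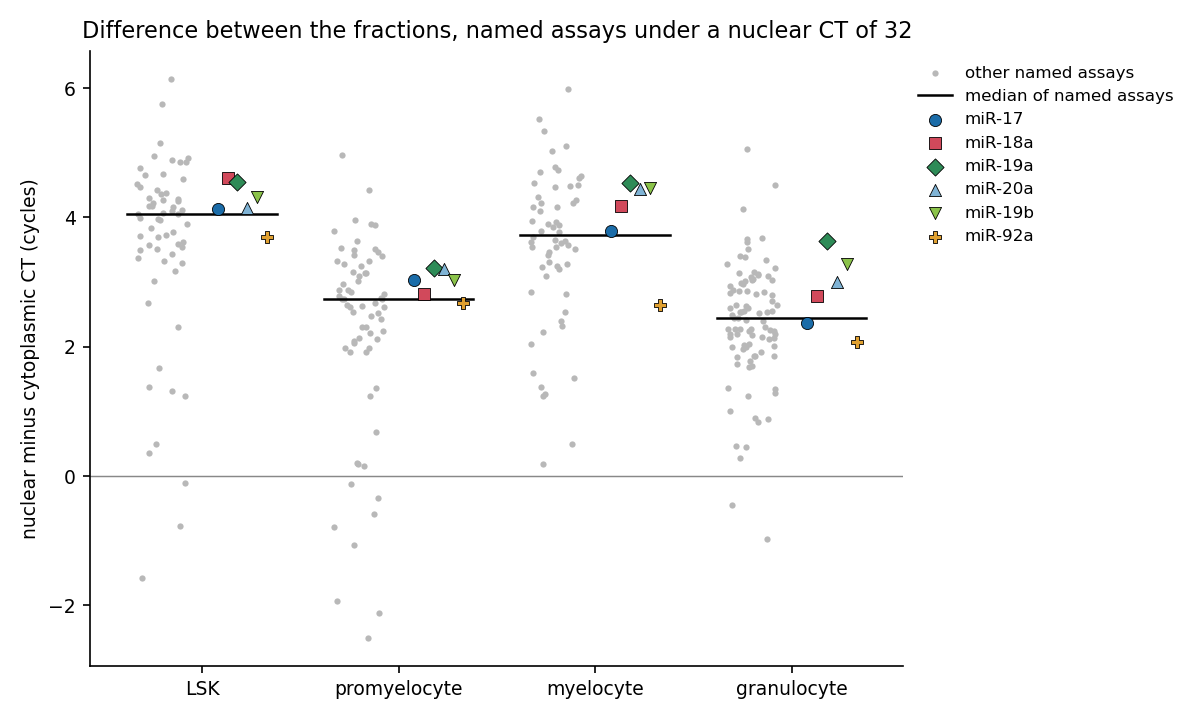
Nuclear minus cytoplasmic CT in cycles (vertical axis) in each stage (horizontal axis), with the members as coloured symbols, the other named assays under a nuclear CT of 32 as grey points and the median of the named assays as a bar, 1 sample per stage and fraction. All members lie above 0 (miR-18a in LSK and myelocytes is over the nuclear limit), and miR-92a is the lowest of the 6 in each stage, from 2.07 to 3.70.

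The other strands of the hairpins, marked with an asterisk, were named for 4 of the 6 members. The whole cell CT of miR-18a* was 31.3 in LSK and then 30.2, 31.04 and 30.8. That of miR-20a* was 30.02, 29.4, 30.8 and 30.8. Both were lowest in promyelocytes, as for the main strands. miR-19a* was undetermined in whole cell RNA of each stage. miR-92a* had a CT of 34.2 in whole cell and 32.9 in cytoplasmic RNA of LSK and was undetermined in the other 10 samples, all values above the limit of 30. The CT of miR-18a* exceeded that of miR-18a by 0.88 cycles in whole cell RNA of LSK and by 2.68 to 3.05 in the later stages. In cytoplasmic RNA the excess was 1.69 in LSK and then 1.55, 3.43 and 2.88, and in nuclear RNA 0.13 in LSK and 4.05 and 1.97 in promyelocytes and myelocytes, with miR-18a* undetermined in granulocytes. It was thus smaller in LSK than in the later stages in whole cell and nuclear RNA, and in cytoplasmic RNA smaller than in myelocytes and granulocytes only. All nuclear values of both strands, and most values of miR-18a*, are above a CT of 30.

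The paralogs fell into separate patterns. miR-106a, from the X-linked cluster, stayed 0.77 to 1.40 cycles above miR-17 over the 12 samples (SD 0.19). Its scaled whole cell change was 0.94 up to the promyelocyte stage and -1.17 from there to granulocytes. miR-20b of the same X-linked cluster changed by 0.17 and -1.56 over these steps. Its CT exceeded that of miR-20a by 2.51 to 3.38 cycles in LSK and by 4.18 to 6.60 in the later stages. Among 82 named assays set against miR-20a in this way, each with a CT under 35 in all 12 samples, 13.4% were outside the range of the later stages in LSK. The highest of the values for miR-20b rests on a nuclear CT of 33.97 in myelocytes, above the limit of 32. The miR-106b-25 cluster, which carries the seeds of miR-17 and miR-92a at another locus, was higher in granulocytes than in promyelocytes, by 1.10 for miR-106b, 0.57 for miR-93 and 0.59 for miR-25, beside a median of 1.06 over the named assays. Scaled by the named card A assays, miR-93 and miR-25 turned to -0.23 and -0.21 and miR-106b was at 0.30. In whole cell RNA all 6 members of the miR-17-92 cluster were lower over that step under each scaling.

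Likeness was measured as the root mean square difference, in cycles, from the members' mean profile over the 12 samples, with each fraction centred. Among 83 named assays under a CT of 35 throughout, miR-17 (0.16), miR-20a (0.18), miR-19a (0.19) and miR-19b (0.21) ranked 1, 2, 3 and 5. Since the profile was made from them, this is a description only. The non-members most like it were miR-106a (0.21), let-7i (0.25) and miR-221 (0.36). miR-92a (0.57) ranked 18 and miR-18a (0.74) ranked 30, behind miRNAs from other loci.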

How the data were processed

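The authors separated the fractions with a kit, ran TaqMan cards A and B on a real-time PCR instrument and deposited CT values in cycles without normalization, with undetermined wells at 40. Per the labels each sample is from 100 ng of RNA, whereas the methods describe fractions by cell equivalents. Names of the 593 numbered assays came from unique matches to lists the study published. One holds cytoplasmic and nuclear CT, matched within 0.0005 cycles (246 assays, the members included). The other holds whole cell log fold changes and named 23 more, within 0.002 after a straight line for each pair of stages, fitted on assays already named, put CT differences on its scale. No names conflicted.

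All 12 columns were used. A change is the fall in CT, called at 2-fold, and each share counts named assays under a CT of 30 in either stage (nuclear: 32). Alternatives were other scalings, fold limits of 1.5 and 3, CT limits of 28 and 32, 1.9-fold per cycle, and card A or all assays for the shares. Scaling by the last 2 assays of card A and the CT relative to the cluster were added after the data were seen. Members and lists were chosen with earlier results of these data known. Named besides the members are other strands, paralogs and the 3 most alike assays. Of 7 stage markers, miR-451 was not named, miR-125b-5p and miR-130a had higher whole cell CT in each later stage than in LSK, and miR-142-3p had lower ones. Procedures were tested on simulated data with Python 3.11.15, numpy 2.4.6 and pandas 2.3.3. With 1 well per assay, no error of a CT can be given. miR-17*, miR-19b*, miR-18b, miR-363 and the mRNA arrays were not analysed here.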

Additional observations from a re-analysis of the deposited data

Results flagged for a closer look

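The unscaled change from LSK to promyelocytes had opposite signs in whole cell RNA (higher in promyelocytes) and in cytoplasmic RNA (lower) for 5 of the 6 members. The whole cell change exceeded the cytoplasmic one by 1.75 cycles for miR-17, 2.69 for miR-19a, 2.41 for miR-20a, 2.25 for miR-19b and 1.57 for miR-92a. With 1 sample per stage and fraction these differences were not tested. Over 66 named assays the same excess was 2.03 cycles on average (SD 0.65) and above 0 in 65, and the members' values lie on both sides of that average. For miR-18a both signs were the same.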

How the results depend on the processing

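No paired analysis was possible because each stage and fraction has 1 sample and no test was made. The whole cell median from LSK to promyelocytes stayed above 1 under each scaling tried, from 1.09 to 1.67. But 3 members in place of 5 were 2-fold higher with the mean of the named assays, with 26 of 104 named assays. The same count held with the mean of the named card A assays, with 28 of 104. At a fold limit of 3, 3 members passed, and 4 were 2-fold higher at 1.9-fold per cycle, where miR-17 was at 0.99. For these settings no share of the named assays is given. From promyelocytes to granulocytes the whole cell median was -0.72 without scaling (1 member 2-fold lower, with 13 of 123 named assays). It was -0.95 with the last 2 assays of card A (2 members, with 17 of 123). In this step 1 member passed a fold limit of 3, for which no share is given. The whole cell median from promyelocytes to myelocytes was -1.33 with the named assays and -1.61 with the named card A assays, against -0.81. That from myelocytes to granulocytes was 0.16 without scaling, against -0.28. That from LSK to granulocytes was 1.11 without scaling and -0.40 and -0.60 with the named and the named card A assays, against 0.44. The fraction changes depend most on the scale. With the last 3 assays of card B, the named assays, the named card A assays and the last 2 assays of card A in that order, the cytoplasmic median from LSK to promyelocytes was 1.27, 0.58, 0.84 and 1.83, against -0.59 unscaled, and from promyelocytes to granulocytes -3.72, -1.56, -1.79 and -3.97, against -0.45. The nuclear median of the latter step was 1.19, -1.41, -1.94 and 1.68, against -0.20. The nuclear median from LSK to promyelocytes was -0.50 with the last 2 assays of card A, against 0.63. From promyelocytes to myelocytes it turned from -1.20 to 0.21 with the last 3 assays of card B and 0.31 with the last 2 of card A, and from myelocytes to granulocytes from 1.11 to -0.17 with the named and -0.29 with the named card A assays. The cytoplasmic change of miR-92a from LSK to promyelocytes turned from -1.29 to 0.56 with the last 3 assays of card B, 0.14 with the named card A assays and 1.12 with the last 2 of card A. Less the median of the named assays, the nuclear minus cytoplasmic median was 0.18, 0.29, 0.57 and 0.44 from LSK to granulocytes. The causes were not tested. Values of miR-18a in nuclear RNA and in whole cell RNA of LSK are limited by detection.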
